A study of Mus musculus with 16 samples.

Results

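The genes examined were 10 transcripts used to follow the epithelial-mesenchymal transition: the adhesion genes Cdh1, Cdh2 and Epcam, the filament gene Vim, the matrix gene Fn1, and the transcription factor genes Snai1, Snai2, Zeb1, Zeb2 and Twist1. They were taken by gene symbol from a table of 34042 rows, and all 10 had enough counts to be tested. RNA from bulk cultures of mouse pluripotent cells was sequenced as 16 libraries, and no genetic change or strain is stated for any group in the sources used here. Formative stem cells (FS) were grown in A3XR medium and gave 6 libraries, from passages 10, 12 and 14 of the line 5ar1 and passages 4, 5 and 12 of the line 5ar3. Epiblast stem cells (EpiSCs) were represented by AF32, a line in AF medium with 3 libraries at passages 13, 14 and 15, and by AFX6, a line in AFX medium with 3 libraries at passages 5, 8 and 12. The embryonic stem cells (ES) were E14IV-C cultures in 2iL, with 4 libraries at passages 12, 13, 15 and 20. Outside FS each group was 1 line in 1 medium, so line and medium cannot be told apart there. Replicates were passages of a line. The p-values measure the spread between these cultures, estimated per gene over all 16 libraries together. In the fits by culture condition that spread included the difference between the FS lines, also for comparisons without FS.

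In epithelial-mesenchymal transition, cells held together by E-cadherin junctions loosen these contacts, shift from E-cadherin to N-cadherin, build vimentin filaments and deposit fibronectin. Transcription factors of the Snail, Zeb and Twist families bind E-box sequences and repress epithelial genes such as Cdh1. MicroRNAs of the miR-200 family act on Zeb1 and Zeb2 transcripts, and the Zeb proteins in turn repress miR-200 genes. Embryonic stem cells and the pluripotent epiblast are both epithelial in character, and the epiblast undergoes this transition at gastrulation.

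Each library held 22069338 to 33290250 counts, and the mitochondrial rRNA gene mt-Rnr2 took 9.96% to 38.1% of them, with the highest share in the ES library of passage 12. Levels are given in CPM, the usual count unit relative to library size, with library sizes scaled by the trimmed mean of M-values (TMM). The labelled cell types were checked against marker genes. Summed CPM of 5 naive pluripotency genes was 2167 to 3413 in the ES libraries and 3.39 to 12.6 in the others, and summed CPM of 4 post-implantation epiblast genes was 39.6 to 103 in ES and 833 to 2244 in the others. A list of 9 fibroblast genes summed to 6.54 to 6.91 CPM in ES, 20.6 to 46.6 in FS, 19.3 to 32.2 in AFX6 and 55.4 to 92.8 in AF32. In bulk samples, fewer cells of a type and less RNA per cell cannot be told apart.

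The comparisons asked how the 10 genes differed between the naive, formative and EpiSC cultures, and whether the FS lines were alike. FS and both EpiSC lines held far more Epcam, Cdh2 and Zeb2 RNA than ES and far less Fn1 RNA. The FS lines were not alike. Line 5ar3 held less Cdh1 and Epcam and more Cdh2, Zeb1 and Zeb2 than line 5ar1.

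**Figure D1:**
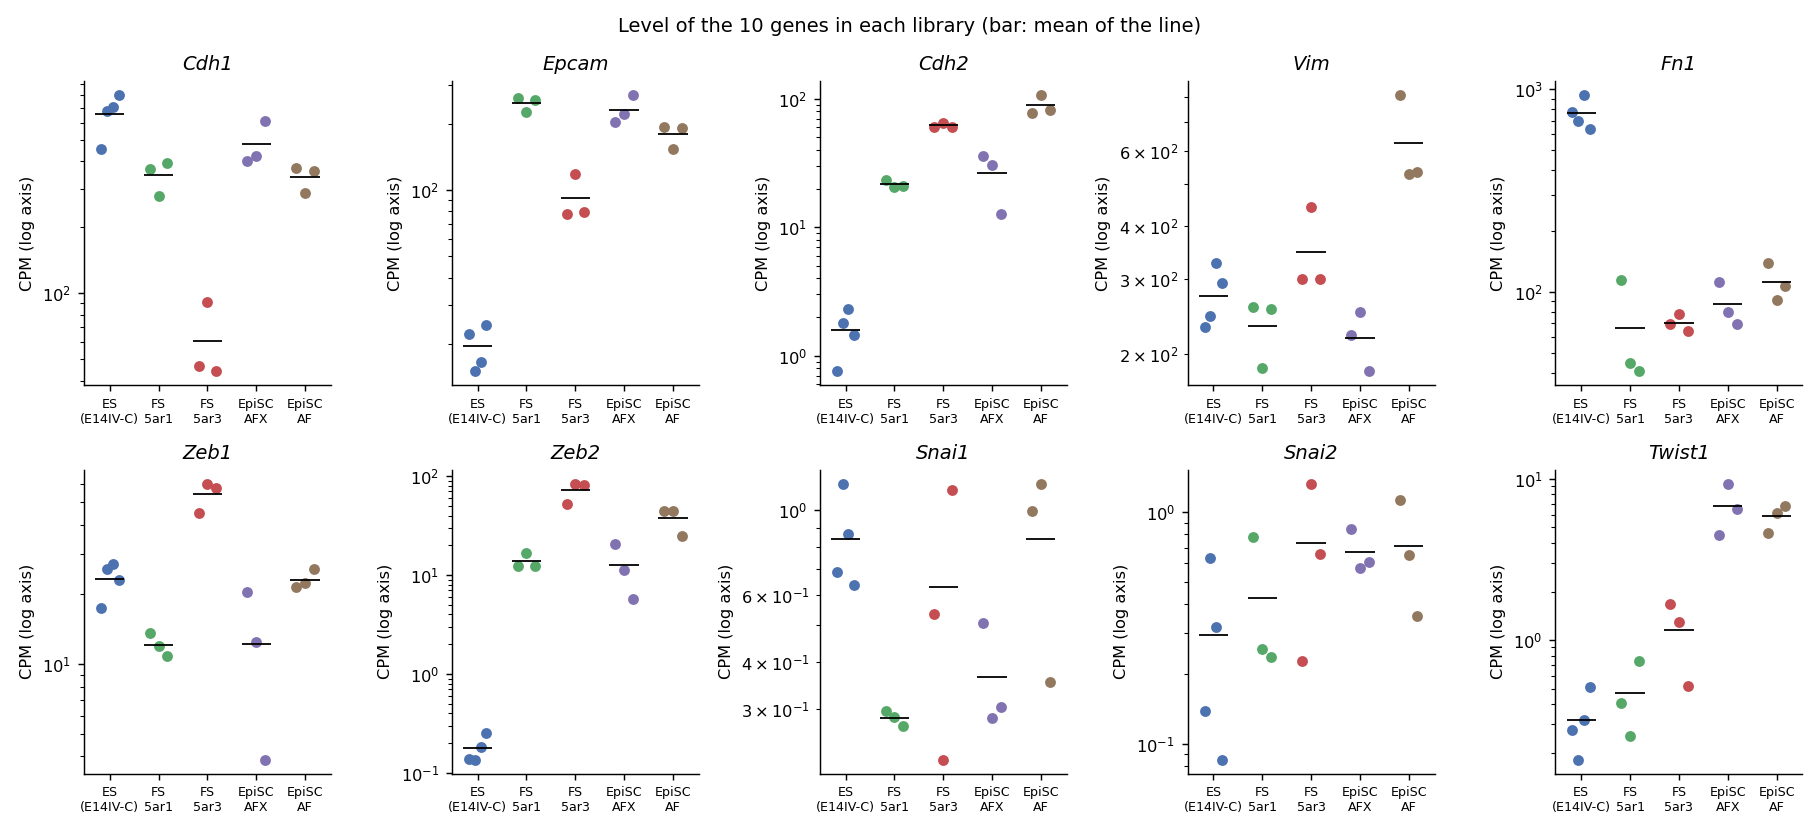
CPM on the TMM scale, on a log axis, of each of the 10 genes in each of the 16 libraries, grouped by line, with 1 point per library and a bar at the mean. Cdh1 lay at 44.2 to 91.1 CPM in 5ar3 and at 278 CPM or more in all other libraries, while Zeb2 was at 0.135 to 0.255 CPM in ES and at 5.72 CPM or more elsewhere.

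Cdh1 (chr8:106603351-106670246, plus strand, GRCm38, GENCODE M21) encodes E-cadherin, the homophilic adhesion protein of epithelial adherens junctions. Its level was 454, 679, 706 and 805 CPM in ES at passages 12, 13, 15 and 20. It was 402, 423 and 611 CPM in AFX6 at passages 12, 5 and 8, and 375, 286 and 363 CPM in AF32 at passages 13, 14 and 15. In FS it was 369, 278 and 392 CPM in 5ar1 at passages 10, 12 and 14, and 46.7, 91.1 and 44.2 CPM in 5ar3 at passages 12, 4 and 5. The 3 libraries of 5ar3 were thus below all 13 others, while 5ar1 overlapped AF32, and the ranges of AFX6 and ES also overlapped.

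Epcam (chr17:87635979-87651129, plus strand) encodes an epithelial cell adhesion molecule expressed in epithelia and in pluripotent cells. It was 22.2, 15.03, 16.6 and 24.5 CPM in ES, in the passage order used for Cdh1. It was 204, 223 and 271 CPM in AFX6, 193, 154 and 191 CPM in AF32 and 261, 227 and 256 CPM in 5ar1. In 5ar3 it was 77.6, 118 and 79.3 CPM. Unlike Cdh1, Epcam was lowest in ES, and 5ar3 lay between ES and all other libraries without touching either.

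The promoter of Epcam is printed because it holds the letters that Snail and Zeb factors are known to bind, and that of Vim as a member promoter without them. Capitals mark CACCTG or its reverse complement CAGGTG, searched on both strands in the 250 bases before the annotated start (RefSeq, GRCm38.p6). The Epcam window is chr17:87635729-87635978 and the Vim window chr2:13574061-13574310, both on the plus strand.
Epcam: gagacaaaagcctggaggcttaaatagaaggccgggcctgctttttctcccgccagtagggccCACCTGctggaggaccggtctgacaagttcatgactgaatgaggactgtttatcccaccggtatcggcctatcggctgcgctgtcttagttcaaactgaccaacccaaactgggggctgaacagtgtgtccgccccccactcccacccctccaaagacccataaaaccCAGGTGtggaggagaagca
Vim: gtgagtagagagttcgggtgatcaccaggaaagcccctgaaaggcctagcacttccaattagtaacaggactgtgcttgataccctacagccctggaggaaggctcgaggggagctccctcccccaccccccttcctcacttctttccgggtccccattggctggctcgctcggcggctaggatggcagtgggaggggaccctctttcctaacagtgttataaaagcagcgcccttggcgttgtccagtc
In Epcam the motif began 187 and 19 bases before the start. Of 32851 windows of this length, 17.2% held at least 1 such motif and 2.06% held it at 2 or more places. A promoter entry was used for 5 of the 10 genes. Those of Cdh2 and Zeb1 were not searched, and no entry was found for Cdh1, Fn1 and Snai2. Snai1 held 1 motif, and Vim, Zeb2 and Twist1 held none in these windows. A match is a string of letters and not evidence of binding, and no match says nothing about the factors.

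Cdh2 (chr18:16588877-16809246, minus strand) encodes N-cadherin, the cadherin of mesenchymal and neural cells. It was 0.760, 1.81, 2.32 and 1.44 CPM in ES. It was 36.1, 30.5 and 12.8 CPM in AFX6 and 77.6, 107 and 81.2 CPM in AF32. The FS lines gave 23.2, 20.5 and 21.0 CPM in 5ar1 and 60.7, 64.8 and 60.6 CPM in 5ar3. From low to high the order was ES, 5ar1, 5ar3 and AF32, without overlap between these 4 lines, and AFX6 overlapped only 5ar1.

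Vim (chr2:13573927-13582826, plus strand) encodes vimentin, the intermediate filament protein of mesenchymal cells. Its level was 232, 245, 327 and 293 CPM in ES, 222, 252 and 183 CPM in AFX6 and 258, 185 and 256 CPM in 5ar1. In 5ar3 it was 299.7, 444 and 301 CPM, and in AF32 it was 810, 530 and 535 CPM. Vim was therefore abundant in all 16 libraries, and AF32 alone stood above every other line.

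Fn1 (chr1:71585520-71653200, minus strand) encodes fibronectin, a matrix glycoprotein bound by integrins. It was 776, 699.5, 938 and 638 CPM in ES. It was 112, 79.3 and 69.9 CPM in AFX6 and 139, 91.1 and 107 CPM in AF32. In FS it was 115, 44.5 and 40.7 CPM in 5ar1 and 69.5, 77.7 and 64.2 CPM in 5ar3. ES lay above all other libraries, and among the other 4 lines only 5ar3 and AF32 did not overlap.

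Zeb1 (chr18:5591860-5775467, plus strand) and Zeb2 (chr2:44983632-45117395, minus strand) encode zinc finger homeobox factors that repress epithelial genes. Zeb1 was 17.4, 25.6, 27.1 and 23.1 CPM in ES, 20.4, 12.4 and 3.86 CPM in AFX6 and 21.4, 22.4 and 25.7 CPM in AF32. In FS it was 13.6, 11.98 and 10.9 CPM in 5ar1 and 44.8, 60.2 and 57.3 CPM in 5ar3. Only 5ar3 stood above all other lines. The lowest Zeb1 level of all was in AFX6 at passage 8, the library with the highest Cdh1 level outside ES.

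Zeb2 was 0.138, 0.135, 0.182 and 0.255 CPM in ES, which is 2 to 6 counts per library. It was 20.8, 11.3 and 5.72 CPM in AFX6, 44.4, 44.2 and 24.8 CPM in AF32, 12.4, 16.6 and 12.5 CPM in 5ar1 and 52.5, 84.2 and 82.2 CPM in 5ar3. The highest line was 5ar3, AF32 came next, and 5ar1 and AFX6 overlapped. The 2 Zeb genes separated in ES: the ratio of Zeb2 to Zeb1 per kilobase of transcript was 0.00336 to 0.00701 in ES and 0.579 to 1.32 in the 12 other libraries. An antisense gene, Zeb2os, overlaps Zeb2 and had 0 to 70 counts per library, and Gm10125 overlaps Zeb1 with 1 to 10 counts. The strand setting of the counting is not given in the sources used here, so reads of such pairs cannot be told apart.

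The miR-200 family is shown with the Zeb genes because its seeds recur in their 3′ untranslated regions. Capitals mark the seed, bases 2 to 8 of each mature microRNA (RefSeq, GRCm38.p6). The first pair shares the seed AACACUG and the other three share AAUACUG.
mmu-miR-141-3p: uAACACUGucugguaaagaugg
mmu-miR-200a-3p: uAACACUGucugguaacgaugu
mmu-miR-200b-3p: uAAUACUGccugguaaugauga
mmu-miR-200c-3p: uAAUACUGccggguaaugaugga
mmu-miR-429-3p: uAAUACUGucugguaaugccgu
The letters searched were CAGTATT and CAGTGTT on the transcribed strand of the longest annotated 3′ untranslated region per gene (GENCODE M21). Zeb1 held 9 matches in 2401 bases and Zeb2 held 9 in 4941 bases. Among regions within 20% of the same length, 0.0377% of 2653 held as many as Zeb1 and 0.0956% of 1046 as many as Zeb2, the gene itself included. Snai2 and Fn1 held 2 matches each, Snai1 held 1, and Cdh1, Cdh2, Epcam, Vim and Twist1 held none. From Zeb2, 3 matches are printed with their flanks, the match in capitals, at chr2:44988172-44988195, chr2:44988107-44988130 and chr2:44988356-44988379 on the minus strand of GRCm38.
Zeb2 match a: cgcactaccatacatCAGTATTtt
Zeb2 match b: cgcactacagtgcatCAGTATTac
Zeb2 match c: tgcaaaaattttgtaCAGTGTTaa

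Snai1 (chr2:167538195-167542814, plus strand) and Snai2 (chr16:14705852-14709385, plus strand) encode zinc finger repressors of Cdh1. Snai1 ranged from 0.221 to 1.18 CPM (6 to 36 counts) and Snai2 from 0.0850 to 1.33 CPM (2 to 36 counts) over the 16 libraries. At these depths a handful of counts moves a level, and libraries of every line overlapped those of another line for both genes. Twist1 (chr12:33957671-33959829, plus strand) encodes a basic helix-loop-helix factor of mesoderm and neural crest. It was 4.48, 9.35 and 6.54 CPM in AFX6 and 4.59, 6.17 and 6.76 CPM in AF32. It was 0.407, 0.255 and 0.744 CPM in 5ar1, 1.67, 1.29 and 0.518 CPM in 5ar3 and 0.276, 0.181, 0.319 and 0.510 CPM in ES. Both EpiSC lines lay above all FS and ES libraries, and 5ar1, 5ar3 and ES overlapped.

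Against ES, the FS libraries differed in 6 of the 10 genes, with Cdh2, Epcam, Zeb2 and Twist1 higher and Cdh1 and Fn1 lower (edgeR quasi-likelihood test, Benjamini-Hochberg adjusted p under 0.05). The background was high, as 62.8% of the 18555 tested genes were called in this comparison, 32.9% higher and 29.9% lower in FS. Zeb2 had the largest change, a log2 fold change of 7.86 (SE 0.89, adjusted p = 1.11e-06). Cdh2 was 25.8-fold higher in FS (log2 fold change 4.69, SE 0.48, adjusted p = 2.30e-07) and Epcam 8.68-fold higher (log2 fold change 3.12, SE 0.36, adjusted p = 8.08e-07). Fn1 was 11.1-fold lower (log2 fold change -3.48, SE 0.25, adjusted p = 2.02e-09). For these 4 genes no FS library overlapped an ES library. Libraries of 5 of the 10 genes did not overlap between FS and ES, against 46.3% of all tested genes.

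Cdh1 was 3.25-fold lower in FS than in ES (log2 fold change -1.70, SE 0.51, adjusted p = 0.0083). This value averaged unlike lines: with 5ar1 alone the log2 fold change was -0.94 (adjusted p = 0.00123) and with 5ar3 alone it was -3.44 (adjusted p = 1.57e-07), in fits that called 57.8% and 62.1% of genes. With passage as a covariate the log2 fold change of Cdh1 was -1.08 and its call was lost (adjusted p = 0.107). Twist1 passed narrowly (log2 fold change 1.31, SE 0.50, adjusted p = 0.0314), with overlapping libraries. Its call was lost with 5ar1 alone (adjusted p = 0.371), with passage as a covariate (adjusted p = 0.107) and with only the groups compared (adjusted p = 0.0613). It was also lost without ES passage 12, 13 or 15 or 5ar3 passage 12 or 4, with adjusted p = 0.0658 to 0.0982. Zeb1 did not pass with both lines together (log2 fold change 0.50, adjusted p = 0.402), and the lines went opposite ways. It was lower than ES in 5ar1 (log2 fold change -0.95, adjusted p = 0.0388) and higher in 5ar3 (log2 fold change 1.22, adjusted p = 0.00761). Vim, Snai1 and Snai2 had log2 fold changes of 0.08, -0.91 and 0.94 and did not pass (adjusted p = 0.737, 0.0973 and 0.196). Without 5ar3 passage 5, whose Snai1 level was the highest in FS, Snai1 was lower in FS with a log2 fold change of -1.39 (adjusted p = 0.00758), and with 5ar1 alone its log2 fold change was -1.56 (adjusted p = 0.00984).

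**Figure D2:**
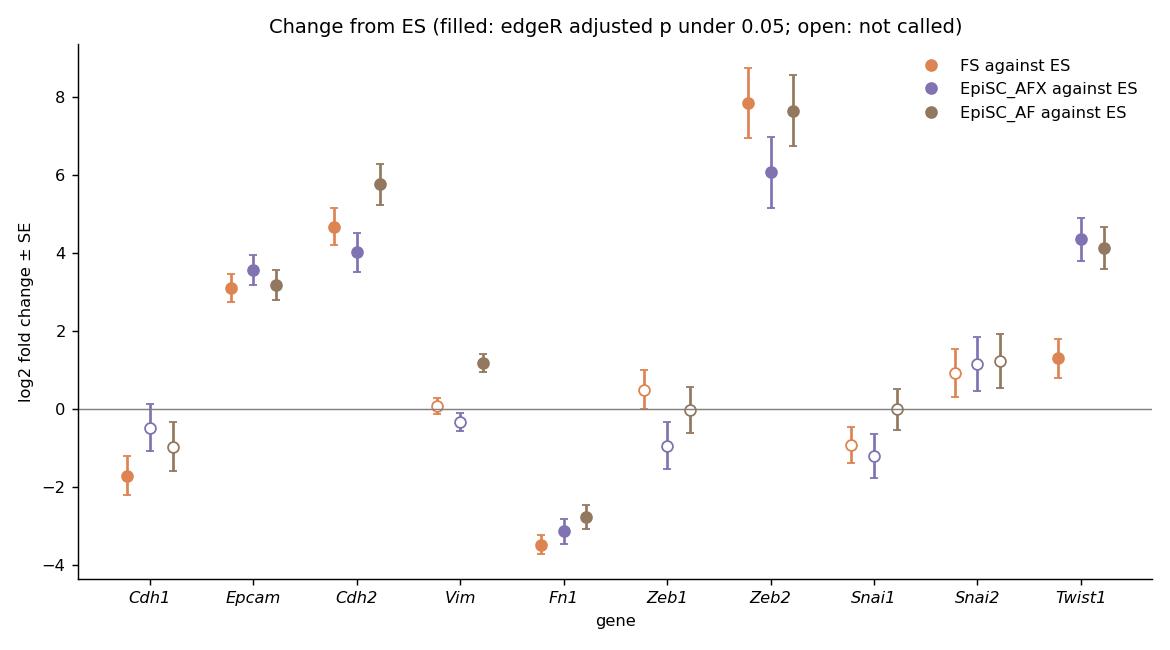
Log2 fold change against ES of each of the 10 genes in FS, AF32 (EpiSC_AF) and AFX6 (EpiSC_AFX), with bars of 1 standard error and filled points where the edgeR adjusted p was under 0.05. Zeb2 (7.86, 7.66 and 6.08), Cdh2 and Epcam had positive changes in all 3 groups, and Fn1 (-3.48, -2.77 and -3.13) had negative ones.

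The EpiSC lines also held more Cdh2, Epcam and Zeb2 and less Fn1 than ES, and both held more Twist1. In AF32, 6 of the 10 genes were called, 5 higher and 1 lower, against 56.7% of all tested genes, 29.7% higher and 27% lower. In AFX6, 5 were called, 4 higher and 1 lower, against 54.7%, 28.5% higher and 26.2% lower. All 3 comparisons share the ES libraries. Cdh2 had a log2 fold change of 5.77 (adjusted p = 7.80e-08) in AF32 and of 4.03 (adjusted p = 3.21e-06) in AFX6. Epcam gave 3.19 (adjusted p = 2.09e-06) and 3.57 (adjusted p = 6.93e-07), and Zeb2 gave 7.66 (adjusted p = 2.96e-06) and 6.08 (adjusted p = 3.41e-05). Twist1 gave 4.15 (adjusted p = 5.42e-06) and 4.36 (adjusted p = 3.32e-06), and Fn1 gave -2.77 (adjusted p = 1.04e-06) and -3.13 (adjusted p = 3.05e-07). Vim was called in AF32 alone, at a log2 fold change of 1.19 (adjusted p = 3.47e-04), and was -0.33 (adjusted p = 0.257) in AFX6. Cdh1 did not pass in either EpiSC line (log2 fold change -0.96, adjusted p = 0.205 in AF32, and -0.47, adjusted p = 0.545 in AFX6). The AF32 and ES libraries did not overlap for Cdh1, and the gene was called when only these 2 groups were fitted (adjusted p = 0.00339). The SE of Cdh1 was 0.206 in that fit and 0.624 with all libraries fitted. Zeb1, Snai1 and Snai2 passed in neither EpiSC line with all libraries fitted. Snai1 was lower in AFX6 when only the groups compared were fitted (log2 fold change -1.17, adjusted p = 0.0316), and its libraries did not overlap with ES. Snai2 was higher in AF32 without ES passage 13 (log2 fold change 1.93, adjusted p = 0.0423). The libraries of 7 genes in AF32 and of 6 genes in AFX6 did not overlap with ES, against 62.3% and 58.7% of all tested genes.

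The balance of the cadherins was read from Cdh1 and Cdh2 per kilobase of their longest coding transcripts. The ratio of Cdh1 to Cdh2 was 333 to 653 in ES. It was 12.2, 15.2 and 52.3 in AFX6, 17.4, 14.8 and 20.3 in 5ar1 and 5.28, 2.92 and 4.88 in AF32. In 5ar3 it was 0.841, 1.54 and 0.796, the lowest of the 5 lines. With the union of all exons as the length the 5ar3 values were 1.36, 2.48 and 1.28. Which cadherin was the more abundant in 5ar3 thus depends on the length used. A change of length scales every library alike, so it cannot alter the order of the lines.

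**Figure D3:**
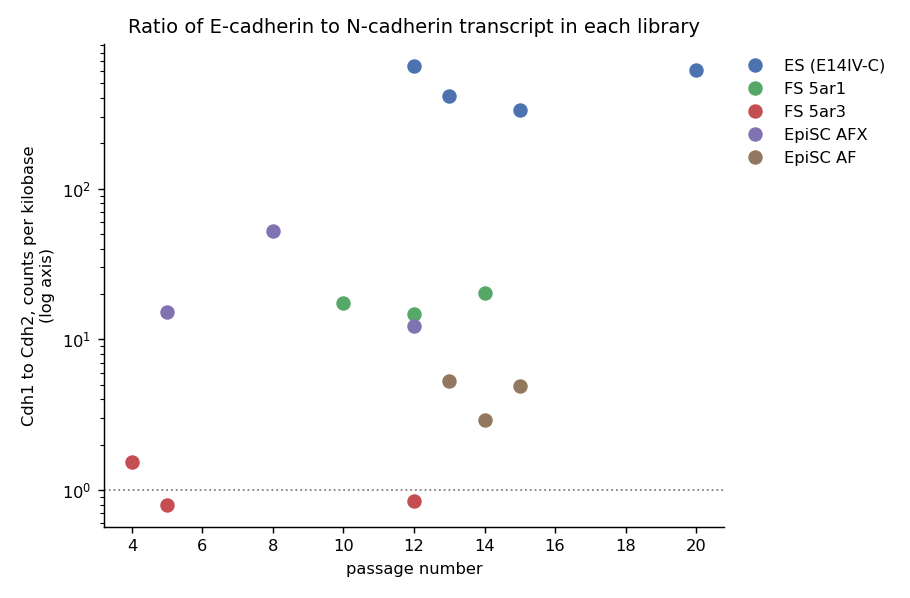
Ratio of Cdh1 to Cdh2 per kilobase of transcript, on a log axis, against passage number in each of the 16 libraries, coloured by line. ES lay at 333 to 653, 5ar3 at 0.796 to 1.54, and the other 3 lines between.

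Between FS and the EpiSC line AFX6, 1 of the 10 genes was called, against 5% of all tested genes, 2.89% higher and 2.1% lower in FS. The libraries of 2 of the 10 did not overlap, against 9.89% of all tested genes. Twist1 was lower in FS, with a log2 fold change of -3.05 (SE 0.43, adjusted p = 4.30e-04), and its libraries did not overlap. For Cdh1 the libraries did not overlap either, yet the log2 fold change of -1.23 did not pass (adjusted p = 0.237). Zeb1 (1.44, adjusted p = 0.193) and Zeb2 (1.78, adjusted p = 0.126) had log2 fold changes above 0 that did not pass. The spread between the FS lines was part of this fit. With 5ar3 as the only FS line, 6 genes were called, against 9.67% of genes in that fit: Cdh1 (log2 fold change -2.97, adjusted p = 4.77e-05), Epcam (-1.33, adjusted p = 0.00113) and Twist1 (-2.52, adjusted p = 0.00136) were lower than in AFX6. Cdh2 (1.24, adjusted p = 0.0237), Zeb1 (2.15, adjusted p = 0.00318) and Zeb2 (2.54, adjusted p = 6.21e-04) were higher. With 5ar1 as the only FS line, Twist1 alone was called (-3.86, adjusted p = 1.17e-04), against 4.10% of genes in that fit.

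Between FS and AF32, 2 genes were called, both lower in FS, against 16.6% of all tested genes, 7.84% higher and 8.81% lower. The libraries of 3 of the 10 did not overlap, against 20.4% of all tested genes. Vim had a log2 fold change of -1.11 (SE 0.21, adjusted p = 0.00149) and Twist1 of -2.84 (adjusted p = 2.11e-04), and neither overlapped. The Cdh2 libraries did not overlap either, with a log2 fold change of -1.08 that did not pass (adjusted p = 0.0674), and that of Fn1 was -0.71 (adjusted p = 0.0691). Cdh2 passed without 5ar3 passage 4 (adjusted p = 0.0387) and with passage as a covariate (adjusted p = 0.0493), and Fn1 passed without 5ar1 passage 10 (adjusted p = 0.01005). Each line was also set against AF32 alone. In 5ar1, 5 genes were called, against 17.5% of genes in that fit, and Cdh2 (-2.04), Snai1 (-1.56) and Zeb2 (-1.46) were lower beside Vim and Twist1. In 5ar3, 6 genes were called, against 17.6%: Cdh1 (-2.49), Epcam (-0.96) and Fn1 (-0.67) were lower and Zeb1 (1.23) was higher, again beside Vim and Twist1. AF32 also differed from FS in summed CPM of 5 mesoderm genes, 46.9 to 176 against 1.27 to 3.76, and of 5 endoderm genes, 57.8 to 170 (169.8) against 0.414 to 5.56. Their part in these differences was not tested.

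Between the EpiSC lines, AFX6 was lower than AF32 in Cdh2 and Vim, 2 of the 10 genes against 4.26% of all tested genes, 1.43% higher and 2.83% lower in AFX6. Vim had a log2 fold change of -1.51 (SE 0.26, adjusted p = 0.00215). Cdh2 had a log2 fold change of -1.74 (SE 0.48, adjusted p = 0.0479), just inside the threshold. The Cdh2 call was lost without AF32 passage 13, 14 or 15 or AFX6 passage 5 or 8, with adjusted p = 0.0884, 0.163, 0.0938, 0.134 and 0.210. Of 6 alternative settings, 4 kept it, and it was lost with total counts and without the filter (edgeR or DESeq2 adjusted p = 0.00856 to 0.145). The Cdh2 libraries of the 2 lines did not overlap. Libraries of 6 of the 10 genes did not overlap, against 33.9% of all tested genes. Marker sums moved with these genes: in AFX6 and AF32, the mesoderm genes summed to 1.69 to 16.4 and 46.9 to 176 CPM, the endoderm genes to 0.847 to 37.6 and 57.8 to 170 (169.8) CPM, and the fibroblast genes to 19.3 to 32.2 and 55.4 to 92.8 CPM. Thy1 of the fibroblast list went the other way, at a mean of 4.30 CPM in AFX6 and 1.07 CPM in AF32. Most of the mesoderm sum in AF32 was T, at a mean of 93.2 CPM, against 5.86 CPM in AFX6. The part of these marker genes in the differences of Cdh2 and Vim was not tested.

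The FS lines, grown in the same medium, differed in 5 of the 10 genes, against 3.88% of all tested genes, 1.86% higher and 2.02% lower in 5ar1. Line 5ar1 was higher in both epithelial adhesion genes and line 5ar3 in N-cadherin and both Zeb genes. Cdh1 was 5.70-fold higher in 5ar1 (log2 fold change 2.51, SE 0.28, adjusted p = 8.27e-05) and Epcam 2.71-fold higher (log2 fold change 1.44, SE 0.20, adjusted p = 6.16e-04). Zeb2 was 5.27-fold lower in 5ar1 (log2 fold change -2.40, SE 0.35, adjusted p = 8.85e-04), Zeb1 4.45-fold lower (-2.15, SE 0.37, adjusted p = 0.00316) and Cdh2 2.87-fold lower (-1.52, SE 0.30, adjusted p = 0.00877). The libraries of these 5 genes and of Vim did not overlap between the lines, against 18.7% of all tested genes.

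Vim had a log2 fold change of -0.58 that did not pass (adjusted p = 0.155). Snai1 (-1.10, adjusted p = 0.328), Snai2 (-0.82, adjusted p = 0.568), Twist1 (-1.32, adjusted p = 0.144) and Fn1 (-0.08, adjusted p = 0.928) did not pass either. The difference was thus measured in the cadherins, Epcam and the Zeb genes, while no difference was detectable in the low-count Snail genes. All 5 calls were kept without any single FS library. The 5ar1 passages were mostly later than those of 5ar3. Both lines had 1 library at passage 12, where Cdh1 was 278 CPM in 5ar1 and 46.7 CPM in 5ar3, and Zeb2 was 16.6 and 52.5 CPM. With passage as a covariate all 5 genes were called. With total counts in place of TMM the Cdh2 call was lost (log2 fold change -1.47, adjusted p = 0.0504).

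Some marker sums of other cell types differed between the lines, and others overlapped. Summed CPM of 4 neural genes was 61.6 to 76.7 in 5ar1 and 109 to 126 in 5ar3, that of 5 endoderm genes 0.414 to 1.0002 and 4.03 to 5.56, and that of 5 mesoderm genes 1.27 to 1.39, with Mesp1 at 0, and 2.73 to 3.76. The 9 fibroblast genes summed to 20.6 to 38.9 CPM in 5ar1 and 34.7 to 46.6 in 5ar3, and 4 neural crest genes to 7.26 to 34.8 and 3.65 to 24.4. The fibroblast and neural crest sums thus overlapped between the lines. Lum of the fibroblast list and Tfap2b of the neural crest list were at 0 in all 5ar1 libraries. Mean Tubb3, most of the neural sum, was 67.3 CPM in 5ar1 and 88.1 CPM in 5ar3. In the same order Sox1 was 1.18 and 22.9 CPM, Pax6 1.21 and 4.26 CPM, and Neurog2 0.0579 and 1.04 CPM. Foxd3, most of the neural crest sum, was 24.3 and 11.4 CPM, while Sox10 was 0.214 and 0.734 CPM and Tfap2a 0.127 and 0.208 CPM. The part of these markers in the line difference was not tested. Summed CPM of the 3 core pluripotency genes was 946 to 1453 in 5ar1 and 578 to 801 in 5ar3. Most of that sum was Pou5f1, at a mean of 989 CPM in 5ar1 and 455 CPM in 5ar3. The other members did not follow it, as Sox2 was 60.0 and 95.1 CPM and Nanog 124 and 128 CPM.

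Lists of genes acting around the 10 were then counted. Of 12 epithelial regulators and proteases, 10 were higher in 5ar1 and none lower, with a median log2 fold change of 2.76 against -0.01 over all genes, of which 1.86% were called higher and 2.02% lower. Rab25, a GTPase of epithelial membrane recycling, was 27.5 CPM in 5ar1 and 0.234 CPM in 5ar3 (log2 fold change 6.81, adjusted p = 3.22e-07). Ap1m2, the epithelial subunit of a clathrin adaptor, was 7.15 and 0.0962 CPM (6.18, adjusted p = 1.09e-04). Esrp2, an epithelial splicing factor, was 8.21 and 0.506 CPM (4.004, adjusted p = 8.61e-05). Of 14 tight junction, desmosome and polarity genes, 9 were higher in 5ar1 and none lower, against the same 1.86% and 2.02%, at a median log2 fold change of 1.31. Among them the claudin Cldn6 was 196 CPM in 5ar1 and 20.5 CPM in 5ar3 (3.25, adjusted p = 1.56e-05), Cldn4 was 6.19 and 0.327 CPM (4.20, adjusted p = 8.61e-05) and occludin (Ocln) was 26.6 and 3.88 CPM (2.77, adjusted p = 4.90e-05). Over the alternative settings 9 to 10 of the regulators and 7 to 9 of the junction genes were called. The lists share no gene with the 10, but they were chosen with earlier results of these data known. The counts are therefore a description and not independent support.

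The other lists were less uniform between the lines. Of 9 adherens junction genes other than Cdh1 and Cdh2, 2 were higher in 5ar1, the plakoglobin gene Jup (log2 fold change 1.39, adjusted p = 0.0277) and Nectin2 (0.86, adjusted p = 0.0246), and neither was called when only the lines were fitted. Jup kept its call in 2 of 6 alternative settings and in 2 of 6 fits without 1 library, with adjusted p up to 0.103 and 0.128. Nectin2 kept its call in 2 of 6 fits without 1 library. The keratin genes Krt8 (1.65, adjusted p = 0.00696) and Krt18 (1.08, adjusted p = 0.0483) were higher, 2 of 4, and with passage as a covariate neither was called. Krt18 kept its call in 1 of 6 alternative settings and in 1 of 6 fits without 1 library, with adjusted p up to 0.143 and 0.192. Of 9 further transition factors tested, Snai3 was higher in 5ar1 (2.43, adjusted p = 0.00449), Sox9 was lower (-2.31, adjusted p = 0.00315), and Prrx1 was lower and at no more than 3 counts in each 5ar1 library. For Prrx1 the 5ar3 mean was at least 3.90-fold above the level of 3 counts in a 5ar1 library (adjusted p = 0.0486), a call lost with total counts, with passage as a covariate and in 5 of 6 fits without 1 library (adjusted p up to 0.165).

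Of 14 mesenchymal effector and matrix genes, 1 differed between the lines: Cdh11, a mesenchymal cadherin, was 2.55 CPM in 5ar1 and 27.2 CPM in 5ar3 (log2 fold change -3.41, adjusted p = 0.00103). This was 1 of 14 against 3.88% of all tested genes, and 6 of the 14 had an unadjusted p under 0.05. Of 10 TGF-beta signalling genes, Tgfb2 (-2.29, adjusted p = 0.038) and Tgfb3 (-2.44, adjusted p = 0.0446) were lower in 5ar1 and the feedback gene Skil was higher (0.66, adjusted p = 0.0139). These 3 calls were lost when only the lines were fitted and with passage as a covariate. Of 6 alternative settings, Tgfb2 kept its call in 2 and Tgfb3 and Skil in 3 each. Their edgeR or DESeq2 adjusted p reached 0.166, 0.141 and 0.0913. Without 1 library, Tgfb2 and Tgfb3 kept their calls in 2 of 6 fits each and Skil in 4 of 6. None of 6 fibronectin receptor genes and none of 6 gastrulation genes was called between the lines by edgeR or DESeq2, with 2 and 1 genes at an unadjusted edgeR p under 0.05. In other edgeR fits, 1 fibronectin receptor gene was called without 5ar1 passage 10 and without 5ar3 passage 5, and 1 gastrulation gene with passage as a covariate.

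**Figure D4:**
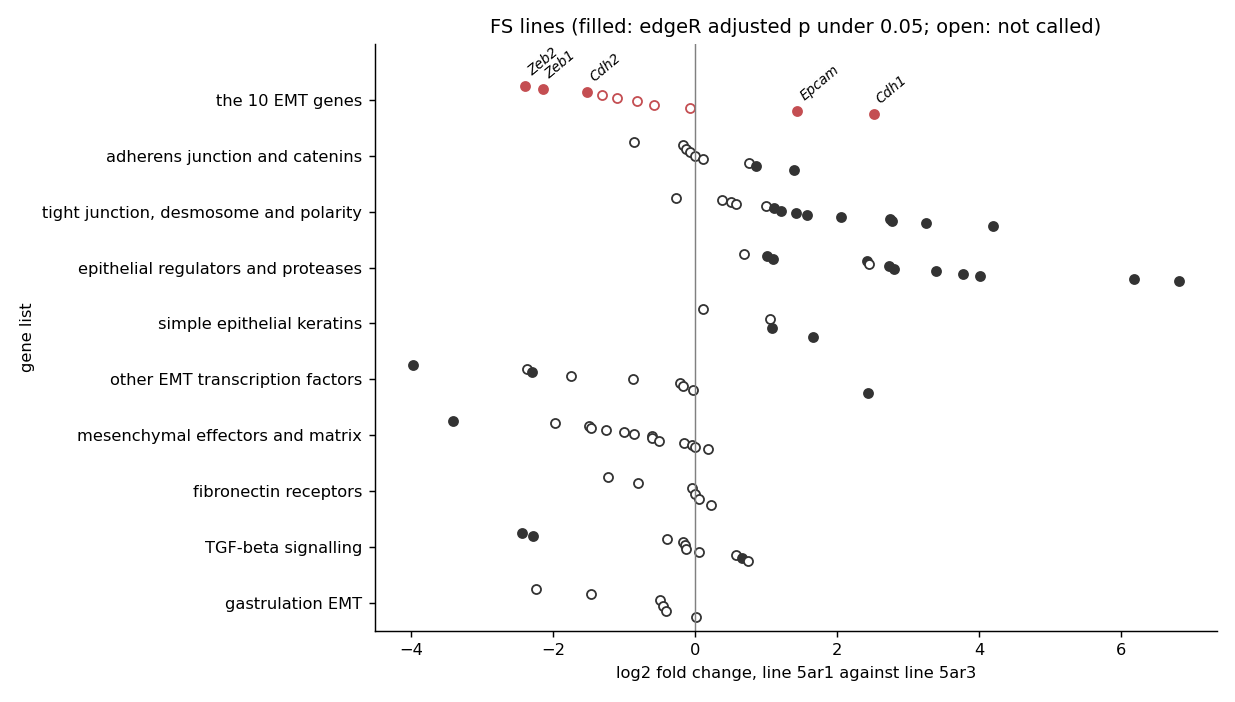
Log2 fold change of line 5ar1 against line 5ar3 for the 10 genes (red) and for the tested genes of each list (black), 1 point per gene, filled where the edgeR adjusted p was under 0.05. Cdh1 (2.51) and Epcam (1.44) lay to the right with most epithelial regulators and junction genes, and Cdh2 (-1.52), Zeb1 (-2.15) and Zeb2 (-2.40) to the left.

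Against ES, the mesenchymal list moved with Cdh2 and Zeb2. Of its 14 tested genes, 13 were higher in FS, 14 in AF32 and 13 in AFX6, and none was lower, against 32.9%, 29.7% and 28.5% of all genes called higher. Tagln, a smooth muscle actin-binding protein, was 119 CPM in FS, 192 CPM in AF32, 89.6 CPM in AFX6 and 0.301 CPM in ES. The median log2 fold change of the list in FS was 4.59, or 3.61 with the 5 genes at no more than 3 counts per ES library set to their lower bound. Of 4 keratin genes, 3 were higher in FS, 4 in AF32 and 3 in AFX6. Krt18 was 2.87 CPM in ES, 93.1 CPM in FS (log2 fold change 5.03, adjusted p = 8.61e-09), 223 CPM in AF32 and 164 CPM in AFX6. Of 14 tight junction, desmosome and polarity genes, 7 were higher and 4 lower in FS. Those counts were 6 and 3 in AF32 and 7 and 2 in AFX6. Of 12 epithelial regulators and proteases, 5 were higher and 3 lower in FS, 3 and 3 in AF32 and 4 and 2 in AFX6. Of all genes, 29.9%, 27% and 26.2% were called lower in FS, AF32 and AFX6. Among the junction genes, Cldn6 was higher in FS than in ES (4.01, edgeR adjusted p = 2.93e-04) and Cldn4 was lower (-4.69, edgeR adjusted p = 3.09e-05). Among the regulators, Esrp1 was higher in FS (6.25) and Elf3 was lower (-4.40), both called.

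Genes whose profile was closest to that of 3 members were found by the root mean square difference of centred log2 CPM over the 16 libraries, among 9631 genes. Nearest to Cdh1 were St14, a membrane serine protease of epithelia (0.458), the noncoding RNA Platr14 (0.491), the desmosomal cadherin Dsg2 (0.515), Map7 (0.538) and Lad1 (0.570). Nearest to Cdh2 were Sh3pxd2b (0.485), the peptide ligand Apln (0.509), the collagen IV chain Col4a2 (0.604), Efnb2 (0.619) and Rnf217 (0.633). Nearest to Vim were Mapk7 (0.305), Spag9 (0.315), Utrn (0.317), Acsl6 (0.332) and Cdc42se2 (0.336). These values describe likeness over libraries that share lines.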

How the data were processed

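Total RNA was sequenced from 16 libraries made with a directional kit, per the labels' protocols. The submitters' processing notes name Trim Galore, TopHat2 2.1.0, featureCounts 1.5.0 and the build mm10; the annotation release and strand setting are not given in the sources used here. The authors deposited raw counts per gene, of which 6 columns matched no sample and were not used, and 2003 rows were 0 in all libraries.

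Counts were fitted with edgeR 4.0.16 in R 4.3.3: filterByExpr with the groups, TMM scaling and a robust quasi-likelihood model over all 16 libraries, with a mean per condition, or per line for 5ar1 against 5ar3. The threshold for a call was 0.05 on p-values adjusted by Benjamini-Hochberg over 18555 genes. Counting error alone is covered by floors of 3 counts, 0.0956 to 0.207 CPM per library. Levels per kilobase used the longest coding transcript in GENCODE M21.

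The 10 genes, the lists and the tests were chosen with earlier results of these data known. All 10 genes were eligible to be named in every comparison, with up to 3 called genes of largest change per list and comparison, and the 5 nearest genes by profile for Cdh1, Cdh2 and Vim. Values of Mir200a, Zeb2os and other overlapping genes were looked at after seeing the data. Alternatives were DESeq2 1.42.0 size factors and Wald test, total counts, no filter, only the compared groups, passage as a covariate, single FS lines and leaving out each library. Those for list genes and Mir200a were added after seeing the data.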

Additional observations from a re-analysis of the deposited data

Results flagged for a closer look

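Snai1 in 5ar3 at passage 5 (FS replicate 6) was 1.13 CPM, apart from the 5 other FS libraries at 0.221 to 0.533 CPM. It lay far from the rest for a group of this size, with 0.657 of the range of the group between it and its neighbour. Of 20 pairs of gene and group examined, this was the 1 that stood out, and chance gives about 1 in 20. Without this library Snai1 was called lower in FS than in ES, as given above, and lower in FS than in AF32 (edgeR adjusted p = 0.0354).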

How the results depend on the processing

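Single genes that changed sign did so without passing the threshold in the main values, and all values here are log2 fold changes. For FS against ES, Vim was -0.25 with 5ar1 alone and -0.17 with passage as a covariate, Zeb1 -0.95 and -0.0888, and Snai2 -0.15 with passage. For AF32 against ES, without the filter, with only the groups compared and with total counts, Snai1 was 0.034, 0.030 and 0.26 and Zeb1 0.029, 0.024 and 0.23. For AFX6 against ES, Cdh1 was 0.56 with passage. For FS against AF32 with 5ar1 alone, Cdh1 was 0.014, Epcam 0.46, Zeb1 -0.94 and Zeb2 -1.46. With passage Epcam was 0.20 and Zeb2 -0.59, with total counts Epcam was 0.032, and with 5ar3 alone Snai2 was 0.058. For FS against AFX6 with 5ar1 alone, Cdh2 was -0.30, Epcam 0.088, Snai1 -0.37 and Zeb1 -0.015, and with 5ar3 alone Snai2 was 0.14. Between the FS lines with passage, Fn1 was 0.031 and Snai2 0.27. The cause was not tested.

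The number of the 10 genes called was 5 with 5ar1 alone and 6 with 5ar3 alone for FS against AF32, and 6 with 5ar3 alone for FS against AFX6. For AFX6 against AF32 it was 1 without the filter and with total counts, and 1 to 2 when single libraries were left out.

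When single libraries were left out, signs turned in genes that passed in neither case. For FS against ES, Vim ranged from -0.078 to 0.18. For AF32 against ES, Snai1 ranged from -0.31 to 0.36 and Zeb1 from -0.12 to 0.064. For FS against AF32, Epcam ranged from -0.25 to 0.069, Snai2 from -0.74 to 0.19 and Zeb2 from -0.10 to 0.39. For FS against AFX6, Snai1 ranged from -0.19 to 0.58. For AFX6 against AF32, Snai2 ranged from -0.39 to 0.42 and Twist1 from -0.081 to 0.45. Between the FS lines, Fn1 ranged from -0.75 to 0.18.

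Scaled by total counts, the all-gene median log2 fold change went from 0.04 to 0.40 for FS against ES, and the share of called genes that were higher from 52.4% to 70.5%; these were 66.3% and 64.7% for AF32 and AFX6 against ES and 72.7% for FS against AFX6. No paired analysis was possible because replicate numbers follow accession order. Depth limits Snai1, Snai2, and Twist1 and Zeb2 in ES, where Twist1 had 4 to 12 counts and Zeb2 2 to 6.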

Other observations

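The table has rows for miR-200 hairpin genes, which measure reads over the precursor locus and not the mature microRNA. Mir200a was picked after its values were seen. It had 26, 17 and 36 counts in 5ar1 and 1 count in each library of 5ar3. The ratio of 5ar1 to 5ar3 per total scaled count was 22.4, with a 95% counting interval of 7.38 to 111 from 79 and 3 counts (edgeR adjusted p = 3.75e-04, higher in 3 of 3 libraries). It had 22 to 26 counts in AF32, 27 to 58 in AFX6 and 4 to 9 in ES. The line with the highest Zeb1 and Zeb2 RNA had the fewest reads at this hairpin, while ES, with Zeb2 near its floor, had few as well. A relation between the hairpin and the Zeb genes was not tested. The Mir200b row had 0 to 4 counts, the Mir200c row had 0 counts in every library, and neither was tested.

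Zeb2os, the antisense gene that overlaps Zeb2, was also picked after its values were seen. It had 1, 6 and 8 counts in 5ar1, 13, 70 and 49 in 5ar3 and 0 in each ES library, where up to 3 counts could go unseen. Its log2 fold change of 5ar1 against 5ar3 was -3.37 (edgeR adjusted p = 0.0492), just inside the threshold. This call was not examined in the alternative settings. With the strand setting not given, reads of Zeb2os cannot be told apart from those of Zeb2.

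Within AFX6 the libraries spread widely. Between passages 12 and 8 Zeb1 went from 20.4 to 3.86 CPM, Zeb2 from 20.8 to 5.72 CPM and Cdh2 from 36.1 to 12.8 CPM, while Cdh1 went from 402 to 611 CPM. Passage 5 lay between them for all 4 genes, so the values had no order in passage. Summed CPM of endoderm genes in AFX6 ranged from 0.847 to 37.6. The part of these markers was not tested.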
